A study of Mus musculus with 6 samples.

Results

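The mRNAs of 8 genes of the subcortical maternal complex (SCMC) were followed in GV-stage fully-grown oocytes (FGOs) of WT and Lsm14b-KO mice. The genes were taken by symbol from the deposited expression table: Nlrp5, Ooep, Tle6, Khdc3, Padi6, Nlrp2, Zbed3 and Nlrp4f, which are 8 of its 24255 genes. All 8 reached at least 1 FPKM in a library and were among the 6398 genes tested. FPKM counts fragments per length of transcript and per library size, so levels can be compared between genes per unit of length. WT females and females homozygous for Lsm14b tm1a(KOMP)Mbp, a reporter-tagged insertion present in every cell of the animal and kept on C57BL/6J, were each given 5 IU of PMSG, and their oocytes were taken 46 h later. Each group had 3 libraries (WT1 to WT3 and KO1 to KO3) of 20 pooled oocytes, amplified by Smart-seq2, and the age of these females was not given in the sources used here. Because oocytes were pooled, a smaller change in every oocyte and a larger change in some of them cannot be told apart, and p-values measure the spread between pools.

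The SCMC is a multiprotein assembly that forms beneath the plasma membrane of the growing mouse oocyte and is passed on to the early embryo. Its core is built from NLRP5 (also called MATER), OOEP (FLOPED), TLE6 and KHDC3 (FILIA), and most of its genes are maternal-effect genes, in which loss in the mother stops or disturbs the cleavage of her embryos. PADI6 is needed for the cytoplasmic lattices, a fibrous store in the oocyte cytoplasm, and NLRP2, NLRP4F and ZBED3 are further components or associated proteins. LSM14B belongs to the LSM14 family of cytoplasmic proteins that bind mRNA.

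In WT oocytes the Lsm14b mRNA reached 2.77, 3.98 and 1.72 FPKM, while the Lsm14b-KO libraries held 0, 0 and 0.102 FPKM (limma adjusted p = 0.0038), as their labels state. The oocyte label was checked with 10 marker genes, all of which were detected and tested. Ddx4 (0.663 ± 0.258 to 3.22 ± 0.327 FPKM, limma adjusted p = 0.005) and Kit (4.08 ± 0.569 to 8.21 ± 2.13 FPKM, limma adjusted p = 0.0441) rose, and the other 8 were not called. Ddx4 was below 1 FPKM in every WT library and entered the test only through its Lsm14b-KO libraries, which favours a rise. The Kit call was lost in 9 of 18 alternatives and in each that left out a library other than KO1 (adjusted p from 0.0911 to 0.159). The summed level of the list, most of it Dppa3, was 43134 to 54423 FPKM in WT and 27474 to 70199 FPKM in Lsm14b-KO oocytes. Of 11 cumulus and granulosa cell markers, 4 including Amh were at 0 in every library, and the summed level of the list was 9.68 to 13.5 FPKM in WT and 6.13 to 9.96 FPKM in Lsm14b-KO oocytes. Only 3 of them reached the level tested, Inha in KO3 only. Cyp19a1, which makes up most of the sum, fell (log2 fold change -0.98, limma adjusted p = 0.0426), a call lost in 10 of 18 alternatives and in each that left out a library other than KO1 (adjusted p from 0.0844 to 0.151), whereas Fshr was at 0.852 ± 0.724 FPKM in WT and 1.94 ± 0.129 FPKM in Lsm14b-KO oocytes (SD, n = 3, log2 fold change 0.73, limma adjusted p = 0.0923) and for Inha the log2 fold change was 0.38 (limma adjusted p = 0.301). All 7 red blood cell markers in the table were at 0, and 5 leukocyte markers summed to at most 0.776 FPKM. The libraries were not alike in scale: their FPKM values summed to 1141324 to 1244182 in WT, to 1029728 in KO1, and to only 564671 and 676656 in KO2 and KO3. The commonest ratio among very low values put KO2 and KO3 at 1.95 and 2.17 times the depth of WT1. By the same estimate the other 3 libraries lay between 1.03 and 1.33 times. In KO2 and KO3, 313 of 1473 and 321 of 1610 low genes lay at that ratio. The ratio stands for sequencing depth only if FPKM was scaled by library size alone, which was not checked. The part of these differences in the values below was not tested.

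The genes lie on 5 chromosomes (GRCm38, GENCODE vM21). The KH-domain genes Ooep (chr9:78376109-78378725, minus strand, 3 exons) and Khdc3 (chr9:73101836-73104438, plus strand, 3 exons) share chromosome 9. The NLR genes Nlrp5 (chr7:23385889-23441922, plus strand, 16 exons) and Nlrp2 (chr7:5298547-5351035, minus strand, 12 exons) share chromosome 7. Nlrp4f (chr13:65177111-65205977, minus strand, 10 exons) and Zbed3 (chr13:95323612-95337841, plus strand, 2 exons) are on chromosome 13, Tle6 (chr10:81590904-81601073, minus strand, 14 exons) is on chromosome 10, and Padi6 (chr4:140727355-140742643, minus strand, 16 exons) is on chromosome 4. Their transcripts run from 1681 nt (Khdc3) to 3527 nt (Nlrp4f). Only Nlrp5 and Khdc3 had a near-identical transcript elsewhere (95% identity along 200 nt or more). For Nlrp5 this was the pseudogene Nlrp5-ps, which was listed at 0.458 to 1.73 FPKM, and for Khdc3 it was the overlapping gene Gm20509, so that these values may hold reads of both copies. Nlrp4f and Nlrp4g were 92.8% identical over 2057 nt.

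Promoters were compared because these genes are used together in the oocyte. RefSeq (GRCm38.p6) gave 12 promoter windows of 300 bases for the 8 genes. The E-box CANNTG, the general motif of basic helix-loop-helix factors such as FIGLA, was present in 11 of the 12 windows, all but that of Nlrp2, and in 72.3% of all 32851 windows. Its form CAGGTG, a subset of it read on both strands, was found in 4 of the 12 windows (of Khdc3, Padi6 and Zbed3), against 20.2% of all windows. The homeobox motif TAATTG or TAATTA was in 3 windows (of Nlrp5, Ooep and Padi6), against 12.4%, and the TATA motif TATAAA in 2 windows (of Nlrp5 and Zbed3), against 13.6%. In Ooep, Khdc3 and Padi6 an E-box began 78 bases before the RefSeq start, a position that holds one in 0.484% of all windows. This coincidence was noticed after the sequences had been read and is a description only. The 120 bases before the start are shown for these 3 genes, which include the most abundant member and the member that changed, and for 1 start of Nlrp5, the member that varied most; capitals mark E-boxes.
Ooep (chr9:78378589-78378708, minus strand): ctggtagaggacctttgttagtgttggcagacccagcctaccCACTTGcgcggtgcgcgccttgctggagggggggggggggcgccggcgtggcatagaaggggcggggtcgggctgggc
Khdc3 (chr9:73102278-73102397, plus strand): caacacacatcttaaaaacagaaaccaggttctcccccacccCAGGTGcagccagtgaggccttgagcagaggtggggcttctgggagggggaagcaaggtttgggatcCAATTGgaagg
Padi6 (chr4:140742644-140742763, minus strand): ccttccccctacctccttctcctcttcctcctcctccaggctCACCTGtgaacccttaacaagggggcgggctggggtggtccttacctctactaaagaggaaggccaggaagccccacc
Nlrp5 (chr7:23385769-23385888, plus strand): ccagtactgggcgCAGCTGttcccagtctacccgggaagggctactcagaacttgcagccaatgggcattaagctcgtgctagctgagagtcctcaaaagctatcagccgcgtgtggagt

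The 8 mRNAs spanned almost 3 orders of magnitude. In WT FGOs the mean level was 6779.6 ± 553 FPKM (SD, n = 3) for Ooep, 900.4 ± 30.9 for Zbed3 and 501 ± 83.4 for Khdc3. It was 68.0 ± 17.7 for Nlrp4f, 64.9 ± 57.5 for Nlrp5 and 64.9 ± 19.1 for Padi6, and 13.6 ± 5.65 for Tle6 and 8.88 ± 1.45 for Nlrp2. The order of the means was the same in Lsm14b-KO FGOs. Ooep, Zbed3 and Khdc3 were apart from each other and from the rest in both groups, while the ranges of Nlrp4f, Nlrp5 and Padi6 overlapped, as did those of Tle6 and Nlrp2, although Tle6 was above Nlrp2 within each of the 6 libraries. Among the 6398 tested genes Ooep held ranks 35 to 39 in the WT libraries, and Nlrp2 held ranks 1841 to 2096. Ooep thus supplied 76.8% to 83.0% of the summed FPKM of the 8 genes in WT.

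**Figure D1:**
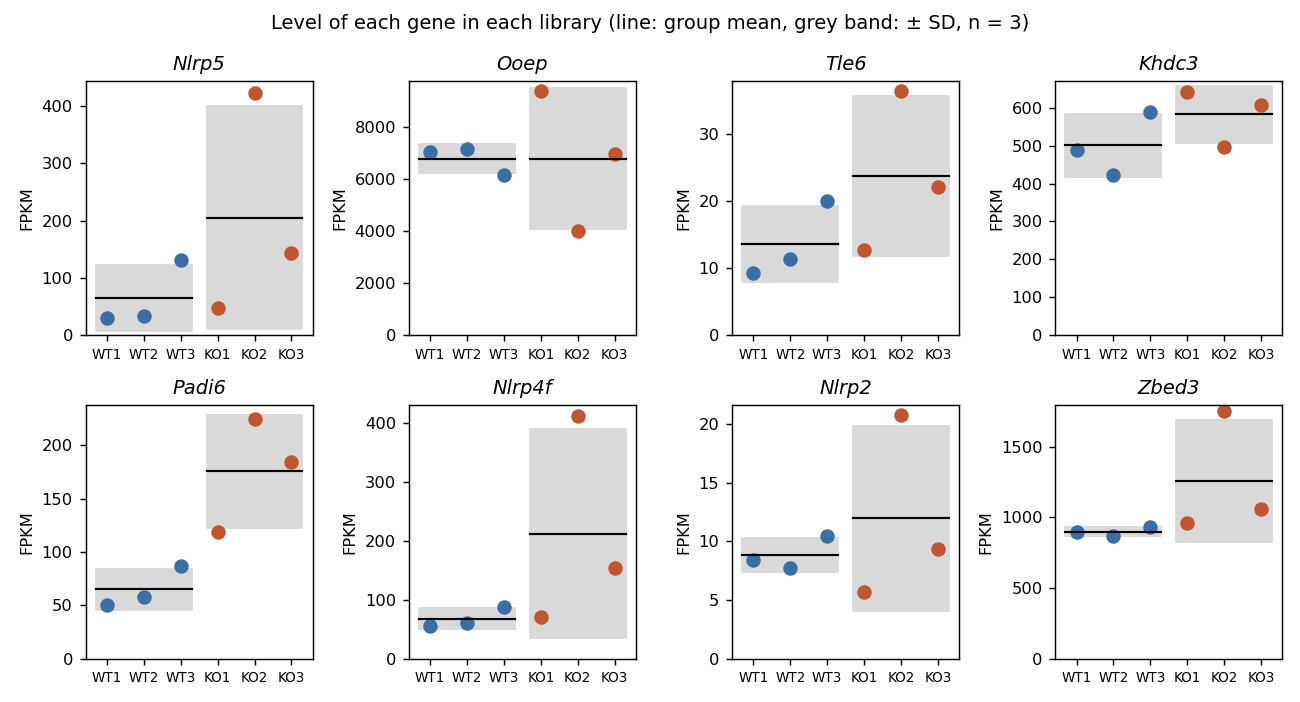
FPKM (y axis, linear, from 0, with its own scale for each gene) of the 8 SCMC genes in the 3 WT (blue) and 3 Lsm14b-KO (orange) libraries; lines are group means and grey bands ± SD. The Lsm14b-KO points lie above all WT points for Padi6 and Zbed3 only, and KO2 is the highest point for 6 of the 8 genes.

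The comparison of WT with Lsm14b-KO oocytes asks whether the level of these maternal mRNAs depends on LSM14B. Padi6, which encodes the peptidylarginine deiminase family member of the oocyte, was the only one of the 8 genes that passed the test, and it rose. It was at 50.1, 58.2 and 86.5 FPKM in WT1, WT2 and WT3 and at 119, 224 and 184 FPKM in KO1, KO2 and KO3. Each Lsm14b-KO library was therefore above each WT library. The means were 64.9 ± 19.1 and 176 ± 53.2 FPKM (SD, n = 3), and the log2 fold change on the log2(FPKM + 1) scale was 1.41 (SE 0.36, 95% interval 0.58 to 2.24, limma adjusted p = 0.0304). An exact permutation test over the libraries returned p = 0.10, which is the lowest possible with 3 against 3. The call was lost when WT1, WT2, WT3, KO2 or KO3 was left out (adjusted p = 0.131, 0.12, 0.0629, 0.0601 and 0.12, limma), with the log2 fold change between 1.21 and 1.64, and it was kept without KO1 (adjusted p = 0.00372). Of all tested genes, 21.6% were called in either direction and 6.38% were called higher in Lsm14b-KO, and the single call among the 8 genes is to be read against these shares.

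The 4 core components did not pass the test, and they differed in how they spread. Nlrp5, the NLR scaffold of the complex, was at 29.3, 34.2 and 131 FPKM in WT1 to WT3 and at 48.0, 423 and 144 FPKM in KO1 to KO3. The groups overlapped, since WT3 was above KO1, and within each group the SD was close to the mean (64.9 ± 57.5 against 205 ± 195 FPKM, SD, n = 3). Its log2 fold change of 1.47 had an SE of 0.84 and a 95% interval from -0.45 to 3.40 (limma adjusted p = 0.218).

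Tle6, a transducin-like enhancer family member that binds the other core proteins, followed Nlrp5 in the order of the libraries at a lower level. It was at 9.33, 11.4 and 20.0 FPKM in WT and at 12.7, 36.5 and 22.0 FPKM in Lsm14b-KO oocytes, and again WT3 lay above KO1. The log2 fold change was 0.71 (SE 0.43, 95% interval -0.28 to 1.70, limma adjusted p = 0.243).

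The KH-domain genes had log2 fold changes near 0. Ooep was at 7040.1, 7155 and 6144 FPKM in WT and at 9389.8, 3987 and 6962 FPKM in Lsm14b-KO oocytes. Its group means were nearly equal (6779.6 ± 553 and 6779.9 ± 2706 FPKM, SD, n = 3), but its Lsm14b-KO values enclosed the WT values on both sides. The log2 fold change was -0.08 with a 95% interval from -0.88 to 0.71 (limma adjusted p = 0.867), which does not show that the level was the same. Khdc3, which is needed for correct chromosome numbers in the cleaving embryo, was at 489, 424 and 589 FPKM in WT and at 642, 498 and 608 FPKM in Lsm14b-KO oocytes. The groups overlapped through KO2, and the log2 fold change was 0.22 (SE 0.29, 95% interval -0.44 to 0.89, limma adjusted p = 0.575).

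Among the associated components, Nlrp4f was at 55.4, 60.4 and 88.3 FPKM in WT and at 71.0, 412 and 154 FPKM in Lsm14b-KO oocytes. KO2 and KO3 were above every WT library and KO1 was below WT3. The log2 fold change was 1.30 (SE 0.59, 95% interval -0.07 to 2.67, limma adjusted p = 0.141). Zbed3, a zinc-finger protein that binds Axin, was at 896, 872 and 933 FPKM in WT and at 958, 1751 and 1060.1 FPKM in Lsm14b-KO oocytes. All 3 Lsm14b-KO values were above the WT values, KO1 by less than the range among the WT libraries, and the difference did not pass the test (log2 fold change 0.43, SE 0.32, limma adjusted p = 0.333, exact permutation p = 0.10). Nlrp2, a maternal-effect gene linked to genomic imprinting, was at 8.41, 7.72 and 10.5 FPKM in WT and at 5.73, 20.8 and 9.33 FPKM in Lsm14b-KO oocytes. The Lsm14b-KO range enclosed the WT range, and the log2 fold change of 0.23 had a 95% interval from -0.73 to 1.19 (limma adjusted p = 0.694).

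Counted together, 7 of the 8 log2 fold changes were positive, as were 46.8% of those of all tested genes. The exception was Ooep, which relative to the median of all genes was at -0.01 on the deposited scale and after centring on the median, at 0.21 with the same FPKM sum and at 0.46 with quantile normalization. Their median was 0.57 against -0.08 over all tested genes. Groups that did not overlap, with Lsm14b-KO above WT, were found in 2 of the 8 genes (Padi6 and Zbed3) and in 19.1% of all tested genes. With all libraries scaled to the same FPKM sum, these were 4 genes (Ooep, Khdc3, Padi6 and Zbed3) and 32.5% of all tested genes. No p-value belongs to these counts, as the genes were chosen as a list.

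**Figure D2:**
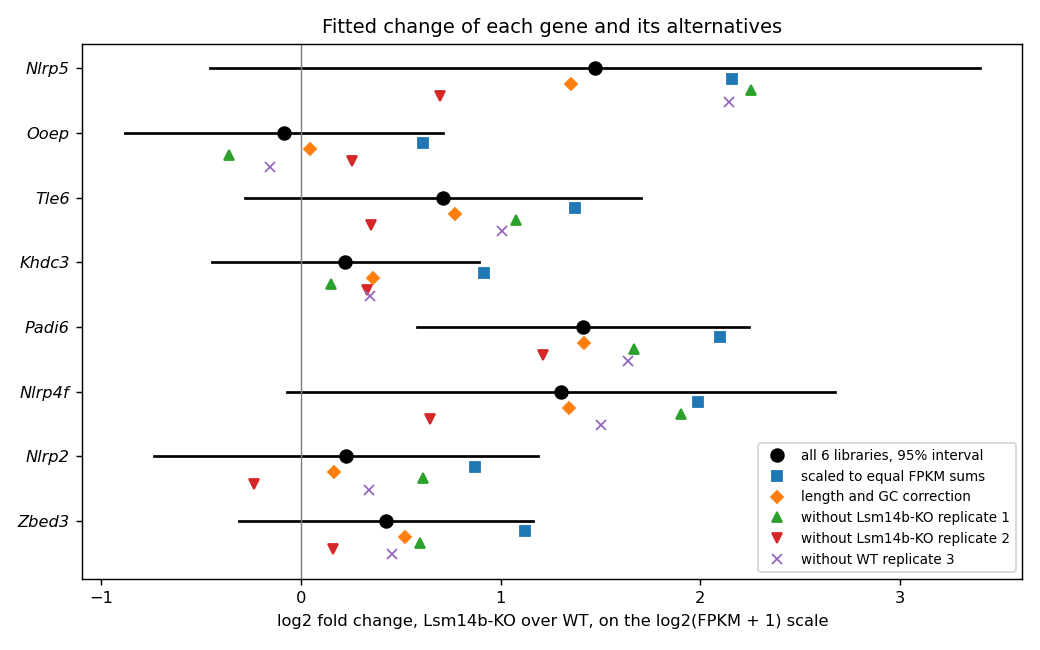
Log2 fold change of each SCMC gene, Lsm14b-KO over WT, on the log2(FPKM + 1) scale (x axis); black circles and lines are the fit to all 6 libraries with its 95% interval, and coloured symbols are 5 alternatives. Only the Padi6 interval lies above 0, and leaving out KO1 or KO2 moves the Nlrp5 value to 2.25 or 0.70.

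The spread between libraries followed a shared order. In 6 of the 8 genes (Nlrp5, Tle6, Padi6, Nlrp2, Zbed3 and Nlrp4f) KO2 was the highest Lsm14b-KO library, KO3 came next and KO1 was the lowest, and WT3 was the highest WT library. This joint order was found in 12.9% of all tested genes. After scaling to the same FPKM sum it was found in the same 6 genes and in 23.0% of all tested genes. Nlrp5, Tle6 and Nlrp4f had the same order of all 6 libraries, from WT1 through WT2, KO1, WT3 and KO3 to KO2. Outside the complex, Nlrp9a and the oocyte markers Zp2, Zp3 and Bmp15 had this order too, and the remaining oocyte markers did not. Its share over all tested genes was not computed. The size of the steps differed: KO2 exceeded KO1 8.81-fold for Nlrp5, 5.80-fold for Nlrp4f, 3.63-fold for Nlrp2, 2.87-fold for Tle6, 1.89-fold for Padi6 and 1.83-fold for Zbed3. The KH-domain genes went the other way, with KO2 at 0.425 times KO1 for Ooep and at 0.775 times KO1 for Khdc3, although after scaling to the same FPKM sum the ratio was 0.774 for Ooep and 1.41 for Khdc3. Within WT, WT3 exceeded WT1 4.47-fold for Nlrp5, 2.14-fold for Tle6 and 1.04-fold for Zbed3.

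On the log2(FPKM + 1) scale the median SD of the 8 genes was 0.30 among WT libraries and 0.68 among Lsm14b-KO libraries, against 0.21 and 0.37 over all tested genes. Nlrp5 had the widest spread in both groups (1.17 and 1.56), Zbed3 the narrowest in WT (0.05) and Khdc3 the narrowest in Lsm14b-KO (0.19). Over the 6 libraries, the tested genes of at least 5 FPKM whose profile came nearest to the median profile of the 8 genes were Rbm38, Btbd10, Rragc, Stard7 and Cdc42ep2, with root mean square differences of 0.07 to 0.13 on the log2 scale among 2552 candidates. Rbm38, the nearest, was at 6.87, 7.17 and 9.39 FPKM in WT and at 8.28, 18.7 and 10.9 FPKM in Lsm14b-KO oocytes. The 8 genes themselves lay farther from their median profile, from 0.19 (Tle6) to 0.96 (Nlrp5), so it describes no single member closely. The ratio of Nlrp5 to Nlrp4f, both NLR mRNAs of nearly the same length, was 0.53, 0.567 and 1.49 in WT1 to WT3 and 0.676, 1.03 and 0.935 in KO1 to KO3. Without KO1, 4 of the 8 genes (Nlrp5, Nlrp4f, Padi6 and Tle6) were called higher, while 18.0% of all tested genes were called higher in the same fit. Their log2 fold changes were then 2.25, 1.91, 1.67 and 1.08 (limma adjusted p = 0.0405, 0.0117, 0.00372 and 0.0473). KO1 is labelled Lsm14b-KO and has Lsm14b at 0 FPKM, so no label asks for its removal.

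**Figure D3:**
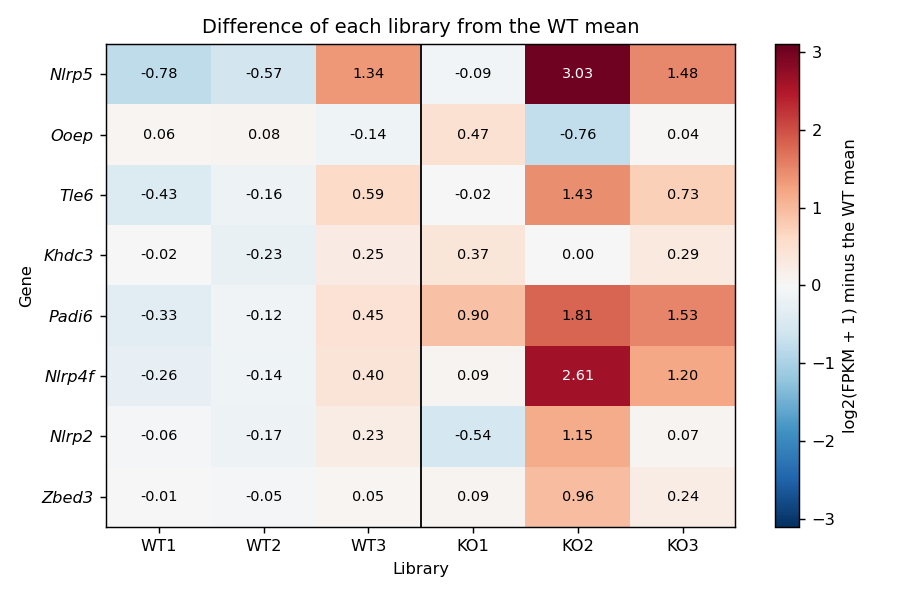
Difference of each library from the WT mean, in log2(FPKM + 1) units (colour scale and printed values), for the 8 SCMC genes (rows) in the 6 libraries (columns). KO2 reaches 3.03 for Nlrp5 and 2.61 for Nlrp4f and falls to -0.76 for Ooep, while KO1 is between -0.09 and 0.09 for Nlrp5, Tle6, Nlrp4f and Zbed3.

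The answer for the complex as a whole depended on the denominator. The summed level of the 8 genes was 8578, 8622 and 8003 FPKM in WT and 11246, 7352 and 9145 FPKM in Lsm14b-KO oocytes, and the groups overlapped (exact permutation p = 0.70). As a percentage of each library's total FPKM, the sum was 0.689, 0.736 and 0.701 in WT and 1.09, 1.30 and 1.35 in Lsm14b-KO oocytes. These percentages did not overlap (0.709 ± 0.0241 against 1.25 ± 0.138, SD, n = 3, exact permutation p = 0.10, the smallest possible). Without Ooep, which made up most of the sum, the other 7 genes came to 1621 ± 209 FPKM in WT and 2468 ± 794 FPKM in Lsm14b-KO oocytes (exact permutation p = 0.20), or to 0.137% ± 0.0222 and 0.366% ± 0.211 of the total (SD, n = 3, exact permutation p = 0.10). The totals themselves were lower in KO2 and KO3, as given above, so the same FPKM is a larger share of the total there. How much of the difference in percentages this makes up was not tested. Scaled to the same total, the median log2 fold change of all tested genes moved up by 0.48. Relative to the median of all genes under that scaling, the median of the 8 genes was 0.85 higher, and it was 0.65 higher on the deposited scale. Khdc3 (log2 fold change 0.92, or 0.52 relative to the median of all genes, limma adjusted p = 0.0378) was then called beside Padi6. Under that scaling 1319 of the 6398 tested genes were called, 833 of them higher in Lsm14b-KO.

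Ranks within a library do not depend on its scale. Among all tested genes, with rank 1 the most abundant, Padi6 ranked 734 to 946 in WT and 283 to 567 in Lsm14b-KO oocytes. Ooep ranked 35 to 39 and 18 to 29, Zbed3 177 to 202 and 62 to 166, Khdc3 252 to 331 and 160 to 218, and Nlrp4f 727 to 900 and 185 to 722. These 5 genes ranked higher in all Lsm14b-KO libraries than in any WT library, as did 23.4% of all tested genes. Nlrp5, Tle6 and Nlrp2 had ranks that overlapped.

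The share of each gene in the sum of the 8 mRNAs overlapped between the groups for all 8 genes. Ooep made up 82.1%, 83.0% and 76.8% of the summed FPKM in WT and 83.5%, 54.2% and 76.1% in Lsm14b-KO oocytes (exact permutation p = 0.50, adjusted p = 0.80 over the 8 genes). KO2 stood apart, with Zbed3 at 23.8%, Nlrp5 at 5.76% and Nlrp4f at 5.60% of the sum, whereas in KO1 these were 8.52%, 0.427% and 0.631%. The smallest unadjusted exact p was that of Padi6 (0.78% ± 0.265 in WT and 2.04% ± 0.997 in Lsm14b-KO, SD, n = 3, exact permutation p = 0.20, adjusted p = 0.80).

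**Figure D4:**
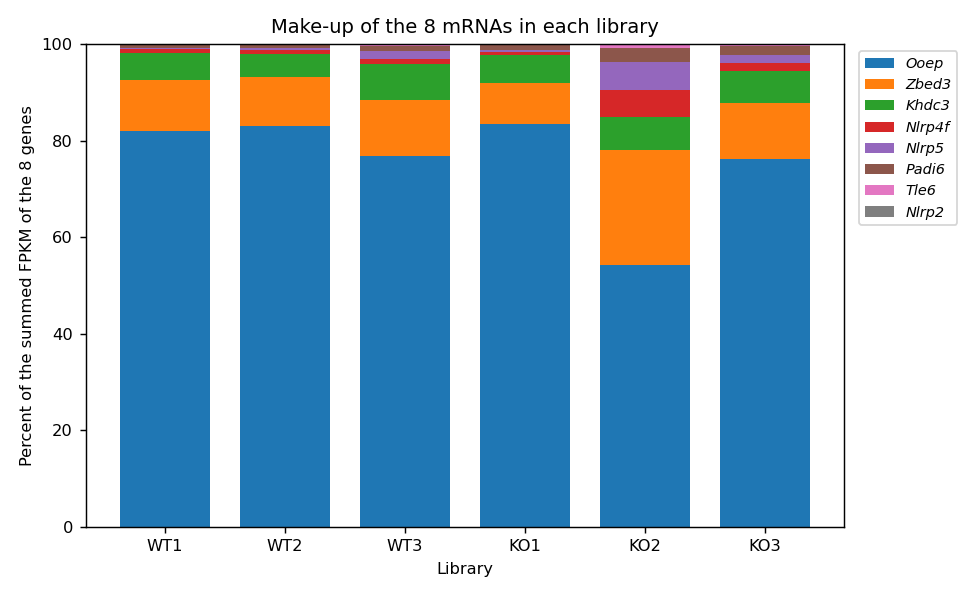
Percent of the summed FPKM of the 8 SCMC genes (y axis) that each gene supplied in each library (stacked bars). Ooep takes 76.1% to 83.5% in 5 libraries and 54.2% in KO2.

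Transcript length moved with the measured change over all genes, and this is given beside the SCMC genes. The median log2 fold change rose from -0.62 among tested genes in the shortest of 5 length classes of equal size to -0.32, 0.01, 0.20 and 0.30 in the longer classes. Khdc3 (1681 nt) falls in the next to shortest class, Zbed3 (1945 nt), Tle6 (2015 nt), Ooep (2138 nt) and Padi6 (2333 nt) in the middle class, and Nlrp2 (3404 nt), Nlrp5 (3508 nt) and Nlrp4f (3527 nt) in the next to longest. The log2 fold changes of Padi6, Nlrp5 and Nlrp4f were above the median of their class by more than 1, and that of Nlrp2 was close to it (0.23 against 0.20). Whether length has a part in the values of single genes was not tested. After a correction for length and GC content the median of the 8 genes was 0.65 and Padi6 was still the only one called. The trend was steepest in KO2, where the class medians ran from -0.99 to 0.39. The deposited loci of Ooep, Khdc3, Tle6 and Nlrp4f are shorter than the GENCODE genes and that of Nlrp2 is longer, so the lengths behind their FPKM may differ from those used here.

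**Figure D5:**
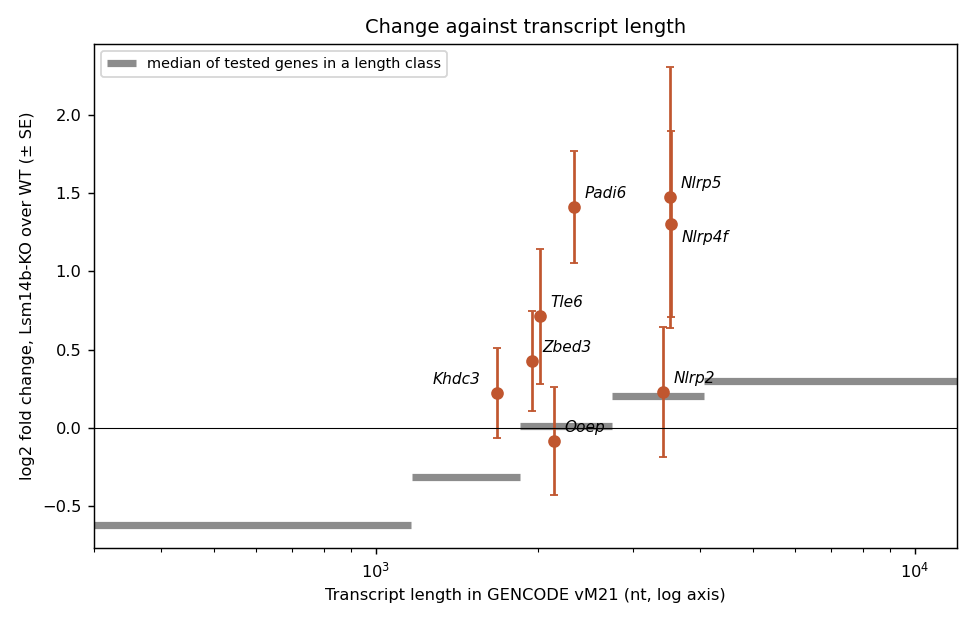
Log2 fold change, Lsm14b-KO over WT, with its SE (y axis) against GENCODE transcript length (x axis, log scale) for the 8 SCMC genes (points); grey bars are the medians of all tested genes in 5 length classes, cut at the edges of the plot. The medians rise from -0.62 to 0.30, and 7 of the 8 points lie above the bar of their class.

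The related genes were described from lists made around the complex. Of 9 other oocyte Nlrp genes in the table, 0 were called by limma (2 at an unadjusted p under 0.05, Nlrp4c and Nlrp9b), all 9 log2 fold changes were positive, and their median was 1.19, beside 21.6% called, 46.8% positive and a median of -0.08 over all tested genes. In the same fit 2518 of the 6398 tested genes had an unadjusted p under 0.05. Nlrp4c was below 1 FPKM in every WT library and entered the test only through its Lsm14b-KO libraries, which favours a rise. The order KO2 above KO3 above KO1 was present in 8 of the 9 genes, all but Nlrp9c, and in 26.5% of all tested genes. Nlrp14, a further component of the lattices, was at 719, 864 and 2573 FPKM in WT and at 815, 6625 and 4772 FPKM in Lsm14b-KO oocytes (log2 fold change 1.34, SE 0.82, limma adjusted p = 0.247). Nlrp4g, the closest relative of Nlrp4f, was at 25.7, 24.2 and 59.6 FPKM in WT and at 13.5, 333 and 86.3 FPKM in Lsm14b-KO oocytes, so that KO1 was its lowest library. Without KO1 both were called (limma adjusted p = 0.0139 for Nlrp14 and 0.0225 for Nlrp4g), beside 18.0% of all tested genes called higher. The rest of this list was not examined without KO1.

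Of 4 relatives of the KH-domain genes, 0 were called by limma (1 at an unadjusted p under 0.05, Khdc1a, beside 2518 of the 6398 tested genes). Dppa5a, which lies in the same family as Ooep, was at 8924, 8235 and 7762 FPKM in WT and at 22142, 9001 and 14806 FPKM in Lsm14b-KO oocytes (log2 fold change 0.79, SE 0.35, limma adjusted p = 0.13), and it was called in 5 of 18 alternatives, with the same FPKM sum, quantile normalization, centring on the median, the length and GC correction (log2 fold change 1.61) and without KO2 (adjusted p from 0.000726 to 0.0467). Its groups did not overlap, with Lsm14b-KO above WT, as in 19.1% of all tested genes. Like Ooep, Dppa5a was highest in KO1 and lowest of the Lsm14b-KO libraries in KO2. Of 6 partner and lattice genes, 1 was called by limma, beside 6.38% of all tested genes called higher. At an unadjusted p under 0.05 there were 3 (Uhrf1, Cfl1 and Dnmt1), beside 2518 of the 6398 tested genes. Uhrf1, which encodes a regulator of DNA methylation held in the oocyte cytoplasm, rose from 5.52, 6.03 and 5.20 FPKM to 8.55, 38.4 and 18.7 FPKM (log2 fold change 1.57, SE 0.47, limma adjusted p = 0.048). This call was lost in 8 of 18 alternatives, among them those without WT1, WT2, WT3, KO2 or KO3 (adjusted p from 0.08 to 0.151). Cfl1 and Dnmt1 were not called (log2 fold change 1.30 and 0.96, limma adjusted p = 0.0565 and 0.0752). Both had all Lsm14b-KO values above the WT values, as did 19.1% of all tested genes. For Ube2d3 and Dppa3 the log2 fold changes were -0.13 and -0.26 (limma adjusted p = 0.754 and 0.647). Of 3 tested somatic relatives of the TLE and ZBED families, 0 were called by limma (0 at an unadjusted p under 0.05).

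Of 6 tested oocyte transcription factors, 2 rose, beside 6.38% of all tested genes. Of the other 4, Gtf2b had all Lsm14b-KO values below the WT values (586 ± 88.1 FPKM in WT and 395 ± 89.8 FPKM in Lsm14b-KO, SD, n = 3), as did 1661 of the 6398 tested genes. Gtf2b was not called (log2 fold change -0.59, limma adjusted p = 0.191, with the sign turned by scaling to the same FPKM sum and by quantiles). Taf4b had all Lsm14b-KO values above the WT values (0.884 ± 0.578 and 2.05 ± 0.148 FPKM, SD, n = 3), as did 19.1% of all tested genes. Taf4b was not called (log2 fold change 0.74, limma adjusted p = 0.0637). The groups overlapped for Figla (93.4 ± 2.61 and 94.4 ± 46.9 FPKM, SD, n = 3, limma adjusted p = 0.86) and Tbpl2 (limma adjusted p = 0.492). Nobox, a homeobox factor of the oocyte, was at 10.5, 10.5 and 16.5 FPKM in WT and at 46.3, 98.9 and 52.3 FPKM in Lsm14b-KO oocytes (log2 fold change 2.25, SE 0.36, limma adjusted p = 0.0064), and it kept its call in all 18 alternatives. Lhx8, another homeobox factor, was at 10.0, 9.001 and 8.54 FPKM in WT and at 19.4, 15.5 and 15.5 FPKM in Lsm14b-KO oocytes (log2 fold change 0.80, limma adjusted p = 0.0447), and it lost its call in 7 of 18 alternatives, among them those without WT1, WT2, WT3, KO2 or KO3 (adjusted p from 0.0563 to 0.148) and with the replicate number as a block (adjusted p = 0.0814). KO1 was above every WT library for Nobox and Lhx8, for 4 of the 8 SCMC genes (Padi6, Zbed3, Khdc3 and Ooep) and for 33.1% of all tested genes.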

How the data were processed

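RNA-Seq was performed on WT and Lsm14b-KO GV-stage FGOs, with groups and replicate numbers taken from the sample titles. Per the labels, the authors aligned trimmed reads to mm10 with TopHat2 (2.0.13), and the deposited FPKM values were computed with Cufflinks (2.2.1). Cuffnorm and Cuffdiff were also named among the upstream tools, without a version. Whether the FPKM values had been normalized between libraries was not checked. The annotation was not given in the sources used here, and the labels name different library kits and no strandedness. The deposited table also holds the authors' log2 fold changes, p-values and q-values, which were not used.

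FPKM was transformed to log2(FPKM + 1). Genes at 1 FPKM or more in at least 1 library (6398 of 24255) were fitted with limma 3.58.1 (R 4.3.3, lmFit and eBayes with an intensity trend, genotype as the only term), after the fit had been tested on simulated data. P-values were two-sided and adjusted by the Benjamini-Hochberg method over all tested genes, with a threshold of 0.05. Sums and shares were compared by exact permutation tests. FPKM holds no counts, so no counting interval can be given, and the study's test on reads could not be repeated.

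The 8 genes and all lists were chosen with earlier results of these data known. Other genes were named where a list of relatives, partners, transcription factors or markers held them and they passed the test, reached 10 FPKM in a group or were singled out in the text. Nlrp4c was named for its unadjusted p after its values were seen. The 5 genes of nearest profile were chosen by root mean square difference. Transcripts came from GENCODE vM21, copies from blastn 2.17.0+ and promoters from RefSeq.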

Additional observations from a re-analysis of the deposited data

How the results depend on the processing

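Over 18 alternatives, 127 of the 144 values of the 8 SCMC genes kept their direction and their side of the threshold, 6 lost and 5 gained a call, and 6 changed sign. The number of SCMC genes called was 1, and it was 0 without a filter on low values (Padi6 adjusted p = 0.0644), 2 after scaling to the same FPKM sum, 2 after quantile normalization and 0 to 4 when 1 library was left out. The median log2 fold change of 0.57 became 1.25 with the same FPKM sum and 1.16 with quantile normalization, and lay between 0.34 and 0.85 when 1 library was left out. The Ooep log2 fold change of -0.08 turned to 0.61 with the same FPKM sum, 0.53 with quantiles, 0.16 with centring on the median, 0.0465 with the length and GC correction and 0.26 without KO2, and ranged from -0.36 to 0.26 when 1 library was left out. Relative to the median of all genes Ooep was at -0.01 in the fit reported and with centring, so that turn is the shift of all genes, and at 0.21 with the same sum, 0.46 with quantiles and -0.06 with the length and GC correction. The Nlrp2 log2 fold change turned from 0.23 to -0.23 without KO2. That of Gtf2b turned from -0.59 to 0.11 with the same sum and 0.22 with quantiles. Of all tested genes, 1383 were called, 1319 with the same sum, 1275 with quantiles, 720.0 without the filter and 315 to 2898 when 1 library was left out. Of the 1383 calls 29.5% were higher in Lsm14b-KO, against 63.2%, 42.4%, 56.8% and 45.2% with the same sum, quantiles, centring, and the length and GC correction. The cause of these differences was not tested. Over all tested genes, samples of the same replicate number did not deviate together (r = 0.19, -0.13 and 0.02). Across unlike numbers, r was highest for WT3 with KO2 (0.306) and lowest for WT3 with KO1 (-0.275). A replicate block left 1 SCMC gene (Padi6, limma adjusted p = 0.0405) and 1244 genes called. The interval of each of the 8 genes spans more than 1 log2 unit, which limits what these libraries can show.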
